A study of Mus musculus with 12 samples.

Results

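Fc gamma receptors are the proteins by which macrophages bind the constant part of IgG antibodies, and their 5 genes in the mouse, Fcgr1, Fcgr3, Fcgr4, Fcgr2b and Fcer1g, were followed across 12 RNA-seq libraries of bone marrow-derived macrophages (BMDMs). The genes were taken by symbol from the 48795 genes listed, and all 5 were among the 11228 genes that passed the filter on low counts. In mouse macrophages an IgG-coated particle is bound by activating receptors (FcγRI, FcγRIII and FcγRIV, from Fcgr1, Fcgr3 and Fcgr4), which are held at the cell surface by and signal through the common FcR gamma chain, the product of Fcer1g. The chain carries an immunoreceptor tyrosine-based activation motif (ITAM) that Src family kinases phosphorylate and Syk binds, and this leads to phagocytosis, release of cytokines and the oxidative burst. FcγRIIB, from Fcgr2b, needs no gamma chain, carries an inhibitory motif (ITIM) and recruits the phosphatase SHIP1, so the balance of activating and inhibitory receptors sets the threshold of the cell for immune complexes.

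The BMDMs were grown with M-CSF from bone marrow of WT mice (strain C57BL/6) and of Acod1-/- mice (C57BL/6NJ-Acod1em1(IMPC)J/J), which lack the enzyme that makes itaconate from cis-aconitate. In each genotype there were 2 libraries of vehicle-treated cells (Control), 2 of cells given particulate matter (PM, urban dust) at 20 μg/cm2 for 24 hours, and 2 of cells given 4-octyl itaconate (OI), a cell-permeable itaconate derivative, at 0.25 mM for 2 hours before PM. The donors were male mice of 7 to 11 weeks of age. The WT strain is named more closely in the methods, as C57BL/6NJ. Cells given OI without PM were not analysed here, so each effect of OI is one in cells with PM, and nothing in the labels says whether the 2 libraries of a group came from separate mice or cultures. The p-values therefore measure only the spread between these libraries, which may be technical. The fit shared its estimate of that spread over all groups, although replicates differed more in some groups. Genes at least 2-fold apart between replicates numbered 148 in WT OI+PM, 38 in WT PM and 11 in WT Control. In Acod1-/- cells they numbered 22 with OI and PM, 12 with PM and 4 in Control. The SEs of a comparison thus do not reflect the spread of its own groups alone.

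The libraries held between 33616577 and 36817898 counts. Acod1 had 5908 to 6346 counts in WT PM libraries and 3271 to 3660 in Acod1-/- PM libraries, so reads of the targeted gene were still present under the Acod1-/- label. With PM the libraries labelled Acod1-/- were below the WT libraries by a log2 fold change of -0.80 that did not pass the test (SE 0.203, adjusted p = 0.0807, edgeR's quasi-likelihood test), and counts per gene do not show which exons the reads cover. The genotype names below are those of the labels. All 8 macrophage markers had counts in every library. They summed to 15692 to 15866 normalized CPM in Control libraries, 23486 to 27491 with PM and 13671 to 14765 with OI and PM, most of it Lyz2. Markers of mast cells and basophils summed to at most 0.117 CPM in any library and those of T and NK cells to at most 0.759, with Fcer1a, Ms4a2, Cd3e and Cd3g at 0. The 5 B cell markers summed to 2.53 to 4 in Control and PM libraries and 0.825 to 1.16 with OI and PM, nearly all of it Cd79b. Those of fibroblasts and stroma summed to 1.23 to 2.77 and 0.238 to 1.07 in the same groups, and dendritic cell and erythroid markers to at most 1.12 and 0.35. The 8 neutrophil markers summed to 5.7 to 6.68 CPM in Control libraries, 12.3 to 18.5 with PM and 27.7 to 53.6 with OI and PM, most of it S100a8, while Ly6g was at 0 in 11 of the 12 libraries. Their part in the results below was not tested. Neither can fewer cells of a kind be told apart from less RNA per cell in such bulk libraries. Replicates of WT PM and of WT OI+PM differed from each other in a way that followed gene length, with a Spearman's rho across genes of 0.6 and 0.61 between exonic length and the log2 difference of replicate 1 from replicate 2. This rho was -0.36 in Acod1-/- PM, the opposite direction, 0.28 in WT Control, 0.29 in Acod1-/- OI+PM and -0.08 in Acod1-/- Control. Results of the short genes among the 5 are therefore also given below after a correction for length. Values of single genes other than these 5 are given without that correction.

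Fcgr1 (ENSMUSG00000015947.10) lies alone on chromosome 3 of GRCm38, from 96282909 to 96293969 on the minus strand. The other 4 genes share a region of chromosome 1. Fcgr2b (ENSMUSG00000026656.15) runs from 170958617 to 170976547 on the minus strand, Fcgr4 (ENSMUSG00000059089.4) from 171018920 to 171029761 on the plus strand, Fcgr3 (ENSMUSG00000059498.13) from 171051174 to 171064935 on the minus strand and Fcer1g (ENSMUSG00000058715.11) from 171229572 to 171234365 on the minus strand. The gap between Fcgr4 and Fcgr3 is 21413 bases and that between Fcgr2b and Fcgr4 is 42373 bases. Fcgr3 and Fcgr2b are near-identical over part of their exons. Of the 1733 stretches of 50 bases, the read length, in Fcgr3 exons, 166 (9.58%) also occur in Fcgr2b exons, so the counts of both are uncertain for reads from there. Of the 5685 stretches in Fcgr2b exons, 395 (6.95%) occur in exons of 146 other genes, these 166 in Fcgr3 included. No such stretch of Fcgr1, Fcgr4 or Fcer1g occurs in the exons of another gene. Exons of Fcgr2b overlap those of Gm38204 on the other strand, which had 0 or 1 counts in each library.

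The sequence before the start of 3 of these genes is shown because the activating receptor genes moved in different directions with OI, as described below, and because STAT, IRF and PU.1 factors are known to act on Fc receptor genes in macrophages. Each is the 250 bases before a start of the gene in RefSeq, on GRCm38.p6, read 5′ to 3′ along the gene's own strand, at chr3:96293970-96294219 (minus strand) for Fcgr1, chr1:171018676-171018925 (plus strand) for Fcgr4 and chr1:171059395-171059644 (minus strand) for Fcgr3. The Fcgr3 window lies inside the gene span given above, which begins further upstream than these RefSeq starts. RefSeq has another start of Fcgr3 slightly upstream of the one used, whose window, from 171059404 to 171059653, is not printed. Capitals mark every match, on either strand, to a gamma-activated site (GAS, TTCNNNGAA), an interferon-stimulated response element (ISRE, GAAANNGAAA), the core bound by PU.1 (GAGGAA) or an antioxidant response element (ARE, TGACNNNGC).
Fcgr1: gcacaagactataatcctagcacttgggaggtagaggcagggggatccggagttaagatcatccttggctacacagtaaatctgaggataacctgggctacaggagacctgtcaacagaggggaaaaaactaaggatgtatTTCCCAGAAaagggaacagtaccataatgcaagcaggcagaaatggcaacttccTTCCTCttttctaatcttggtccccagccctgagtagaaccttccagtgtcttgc
Fcgr4: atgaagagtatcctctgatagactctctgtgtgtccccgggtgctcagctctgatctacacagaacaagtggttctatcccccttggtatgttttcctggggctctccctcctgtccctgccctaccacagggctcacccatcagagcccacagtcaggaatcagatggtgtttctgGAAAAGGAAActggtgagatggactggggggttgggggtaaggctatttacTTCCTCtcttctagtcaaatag
Fcgr3: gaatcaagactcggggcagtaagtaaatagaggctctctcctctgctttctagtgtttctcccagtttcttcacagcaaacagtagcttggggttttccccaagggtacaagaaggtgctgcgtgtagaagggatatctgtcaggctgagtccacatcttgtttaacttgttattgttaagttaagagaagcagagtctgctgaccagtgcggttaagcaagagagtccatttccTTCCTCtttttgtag
The Fcgr1 window held a GAS that begins 109 bases before the start and a PU.1 core on the other strand at 55 bases. The Fcgr4 window held an ISRE at 73 bases and a PU.1 core on the other strand at 22 bases. Fcgr3 had a PU.1 core on the other strand at 15 bases (6 bases from the other start) and none of the other letters. The windows of Fcgr2b and Fcer1g held none of the 4 motifs, and no window of the 5 genes held an ARE. Over 32851 windows of the same length before RefSeq genes, 7.02% held a GAS, 2.98% an ISRE, 23.3% a PU.1 core and 10.2% an ARE. A match of letters is a description of the window and does not show that a factor was bound there.

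Fcgr1 encodes FcγRI (CD64), the high-affinity IgG receptor, and it was the member with the widest range, since PM raised it slightly and OI before PM brought it far below Control. In WT BMDMs its normalized CPM (counts scaled to library size after TMM normalization) was 83.3 and 84.7 in the Control libraries, 105 and 108 with PM, and 27.8 and 28.3 with OI and PM. In Acod1-/- BMDMs it was 102 and 99.0 in Control, 122 and 116 with PM, and 26.6 and 27.2 with OI and PM. Both genotypes had the highest libraries with PM and the lowest with OI and PM, without overlap between any of the 6 groups. The fall with OI relative to PM was 3.80-fold in WT (log2 fold change -1.93, SE 0.0611, adjusted p = 8.89e-09) and 4.42-fold in Acod1-/- cells (log2 fold change -2.14, SE 0.0614, adjusted p = 5.57e-09), both from edgeR's quasi-likelihood fit, with p-values adjusted by Benjamini-Hochberg over all genes tested. With 4.02% of genes lowered more in WT and 3.14% in Acod1-/- cells, it was among the more strongly lowered genes of these comparisons. Relative to Control, Fcgr1 with OI and PM was lower by a log2 fold change of -1.58 (SE 0.0606) in WT and -1.90 (SE 0.0610) in Acod1-/- cells. The rise with PM alone was 1.27-fold in WT (log2 fold change 0.34, SE 0.058, adjusted p = 0.00225, edgeR) and 1.18-fold in Acod1-/- cells (0.24, SE 0.0578, adjusted p = 0.0138, edgeR). The latter was not called after the length correction (0.13, adjusted p = 0.142) or without a filter on low counts (adjusted p = 0.121). It was also lost without Acod1-/- Control replicate 1 (adjusted p = 0.0679), without Control replicate 2 (0.121) and without Acod1-/- PM replicate 1 (0.113).

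**Figure D1:**
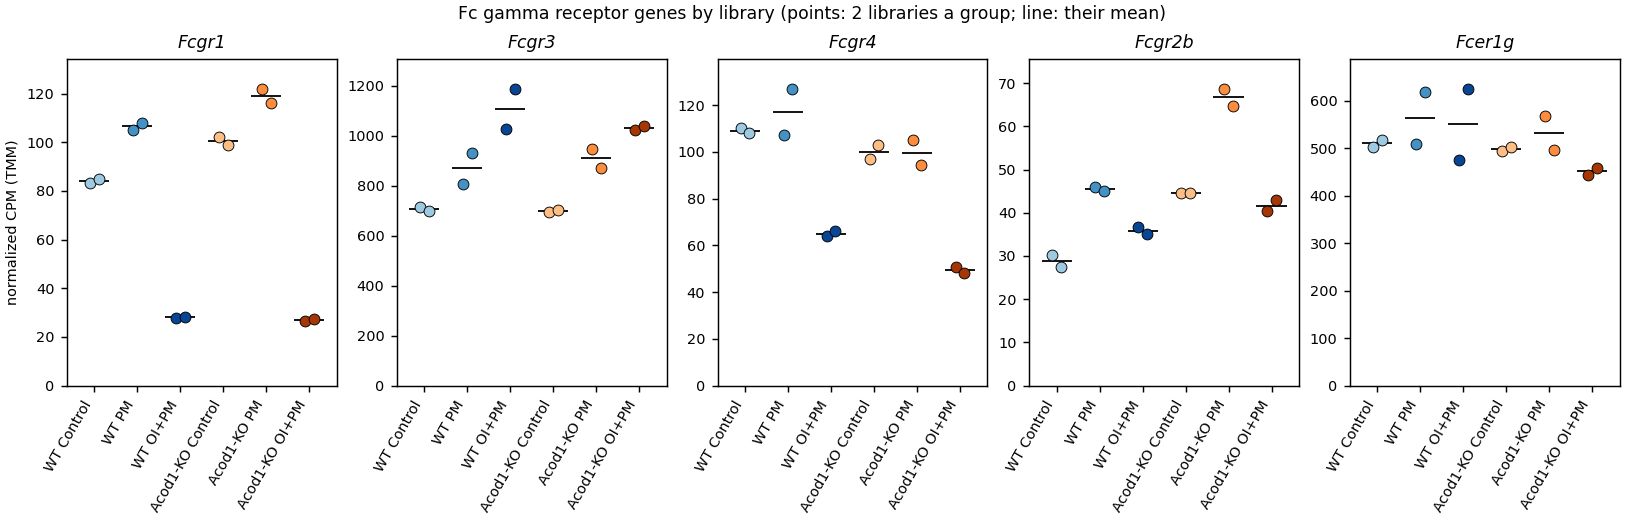
Normalized CPM of the 5 genes in each of the 12 libraries, on a linear axis from 0 that differs between panels; points are libraries, black lines are means of 2, and the Acod1-/- groups are labelled Acod1-KO. The Fcgr1 libraries with OI and PM lie between 26.6 and 28.3, below all others, while the Fcgr3 libraries with OI and PM lie between 1021 and 1188, above all others.

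Fcgr4 encodes FcγRIV, which binds IgG2a and IgG2b, and it was lower with OI and PM than in every other group but did not pass the test with PM alone. In WT BMDMs it was at 110 and 108 normalized CPM in Control, 107 and 127 with PM, and 64.0 and 66.1 with OI and PM. In Acod1-/- BMDMs it was at 96.8 and 103 in Control, 105 and 94.4 with PM, and 50.6 and 48.0 with OI and PM. The Control and PM libraries overlapped in both genotypes, and those with OI and PM lay below them. OI lowered Fcgr4 by 1.80-fold in WT (log2 fold change -0.85, SE 0.0916, adjusted p = 4.33e-05) and 2.03-fold in Acod1-/- cells (log2 fold change -1.02, SE 0.0923, adjusted p = 1.3e-05, edgeR's quasi-likelihood test). The log2 fold change with PM was 0.11 (SE 0.0903, adjusted p = 0.371) in WT and 0.00 (SE 0.0905, adjusted p = 0.981) in Acod1-/- cells. After the length correction the values with PM were -0.16 (adjusted p = 0.247) and -0.21 (adjusted p = 0.141), and those with OI relative to PM were -1.0 (adjusted p = 1.02e-05) in WT and -1.03 (adjusted p = 9.11e-06) in Acod1-/- cells.

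Fcgr3 encodes FcγRIII (CD16), the low-affinity activating receptor, and it went the other way, with its highest libraries in the OI and PM groups. In WT BMDMs it was at 713 and 697 normalized CPM in Control, 806 and 932 with PM, and 1025 and 1188 with OI and PM. In Acod1-/- BMDMs it was at 694 and 702 in Control, 948 and 870 with PM, and 1021 and 1038 with OI and PM. The 3 treatments did not overlap within either genotype, and the 2 genotypes overlapped within each treatment. Relative to Control, Fcgr3 with OI and PM rose 1.57-fold in WT (log2 fold change 0.65, SE 0.0869, adjusted p = 0.000136) and 1.48-fold in Acod1-/- cells (log2 fold change 0.56, SE 0.0868, adjusted p = 0.000443, edgeR's quasi-likelihood test). After the length correction these were 0.30 and 0.38 and still passed. The separate steps were less firm. OI relative to PM gave 0.35 (SE 0.0866, adjusted p = 0.00895, edgeR) in WT, which was lost without WT PM replicate 1 (0.24, adjusted p = 0.0675) and with only the compared groups in the fit (adjusted p = 0.143), and 0.18 (SE 0.0865, adjusted p = 0.143) in Acod1-/- cells, which was called after the length correction (0.16, adjusted p = 0.0312), without a filter on low counts (adjusted p = 0.0329) and with only the compared groups in the fit (adjusted p = 0.00658). PM relative to Control gave 0.30 (SE 0.0866, adjusted p = 0.0312, edgeR) in WT, which fell to 0.08 (adjusted p = 0.261) after the length correction. It was also lost without WT Control replicate 1 (adjusted p = 0.128), without WT Control replicate 2 (0.146) and without WT PM replicate 2 (0.19, adjusted p = 0.237). In Acod1-/- cells PM gave 0.38 (SE 0.0867, adjusted p = 0.0105, edgeR), and the adjusted p was 0.0746 without Control replicate 1, 0.0643 without Control replicate 2 and 0.0951 without PM replicate 1.

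Fcer1g, the gene of the signalling chain that the 3 activating receptors share, stayed within the narrowest range of the 5 genes, from 443 to 625 normalized CPM. In WT BMDMs it was at 503 and 518 in Control, 508 and 619 with PM, and 476 and 625 with OI and PM. In Acod1-/- BMDMs it was at 493 and 503 in Control, 568 and 497 with PM, and 443 and 459 with OI and PM. The WT groups overlapped, and in both WT groups with PM replicate 2 was the higher. No comparison of Fcer1g passed the test as counted. OI relative to PM gave -0.03 on the log2 scale (SE 0.128, adjusted p = 0.853) in WT and -0.24 (SE 0.128, adjusted p = 0.183) in Acod1-/- cells. After the length correction both were called lower, at -0.24 (adjusted p = 0.00281, edgeR) in WT and -0.26 (adjusted p = 0.00232, edgeR) in Acod1-/- cells, the latter also without a filter on low counts (adjusted p = 0.0315) and with only the compared groups in the fit (adjusted p = 0.00267). Fcer1g has the shortest exonic length of the 5 genes, 874 bases, and its direction relative to Control turned with the length correction in WT and, with PM alone, in Acod1-/- cells. PM relative to Control in WT was 0.14 (SE 0.127, adjusted p = 0.41) as counted and -0.16 (adjusted p = 0.0414) after it, and OI and PM relative to Control in WT was 0.11 (SE 0.128, adjusted p = 0.462) as counted and -0.40 (adjusted p = 5.41e-05) after it (edgeR's quasi-likelihood test). Without WT OI+PM replicate 1 the latter, as counted, was 0.29 (adjusted p = 0.0253). In Acod1-/- cells PM relative to Control was 0.10 (adjusted p = 0.6) as counted and -0.16 (adjusted p = 0.0446) after the correction. OI and PM relative to Control there kept its direction and gained a call, from -0.14 (adjusted p = 0.37) to -0.41 (adjusted p = 5.28e-05).

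Fcgr2b, the inhibitory receptor gene, rose with PM, fell with OI, and was the only member called between the genotypes with vehicle or PM in the fit of all libraries. In WT BMDMs it was at 30.1 and 27.5 normalized CPM in Control, 46.0 and 45.0 with PM, and 36.6 and 35.1 with OI and PM. In Acod1-/- BMDMs it was at 44.6 and 44.5 in Control, 68.7 and 64.8 with PM, and 40.3 and 42.9 with OI and PM. Within each treatment the Acod1-/- libraries were above the WT libraries, and the Acod1-/- Control libraries were close to the WT PM libraries. PM raised Fcgr2b 1.58-fold in WT (log2 fold change 0.66, SE 0.0709, adjusted p = 0.000124) and 1.5-fold in Acod1-/- cells (log2 fold change 0.58, SE 0.0698, adjusted p = 0.000222, edgeR's quasi-likelihood test). OI relative to PM lowered it by 1.27-fold in WT (-0.34, SE 0.0707, adjusted p = 0.00335) and 1.60-fold in Acod1-/- cells (-0.68, SE 0.0701, adjusted p = 3.37e-05, edgeR), the former not with only the compared groups in the fit (adjusted p = 0.116). Relative to Control, Fcgr2b with OI and PM was higher in WT by 0.32 (SE 0.0714, adjusted p = 0.00335, edgeR; 0.0732 with only the compared groups) and gave -0.10 (SE 0.0703, adjusted p = 0.262) in Acod1-/- cells.

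Between the genotypes, Fcgr2b was 1.55-fold higher in Acod1-/- than in WT BMDMs with vehicle (log2 fold change 0.63, SE 0.0709, adjusted p = 0.00185) and 1.47-fold higher with PM (log2 fold change 0.55, SE 0.0698, adjusted p = 0.00334, edgeR's quasi-likelihood test). Both held under every alternative tried, with adjusted p-values of up to 0.0358 and 0.0445. Only 0.891% of all genes tested were called higher in Acod1-/- cells with vehicle and 1.1% with PM, and Fcgr2b ranked 33 and 49 by p among the 11228 genes. With OI and PM the difference was 0.21 (SE 0.0709, adjusted p = 0.0929), and 0.24 (adjusted p = 0.0312) without WT OI+PM replicate 1. The Acod1 deletion and any other difference between the mouse strains cannot be told apart in these groups. Fcgr3, which shares sequence with Fcgr2b, gave -0.01 (SE 0.0866, adjusted p = 0.998) with vehicle and 0.06 (SE 0.0865, adjusted p = 0.796) with PM.

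With vehicle and with PM the genotype differences of the other members were smaller. Fcgr1 was at 0.26 (SE 0.058, adjusted p = 0.0625, edgeR) with vehicle, with the Acod1-/- libraries above the WT libraries, and DESeq2 called it (adjusted p = 0.00461), as did the length correction (0.0492) and the fit of the compared groups alone (6.17e-06). With PM it was at 0.16 (SE 0.0578, adjusted p = 0.245), while in the OI+PM groups it was at -0.06 (SE 0.0611, adjusted p = 0.506). Fcgr4 was the only member called with OI and PM, 1.32-fold lower in Acod1-/- cells (log2 fold change -0.40, SE 0.0922, adjusted p = 0.0327, edgeR), where 4.45% of genes were called lower. The call of Fcgr4 was lost in 6 of 12 alternatives, among them the length correction (-0.21, adjusted p = 0.17), the fit without WT OI+PM replicate 2 (-0.38, adjusted p = 0.0848), the fit without Acod1-/- OI+PM replicate 1 (-0.44, adjusted p = 0.149) and the fit without Acod1-/- OI+PM replicate 2 (-0.36, adjusted p = 0.205). Fcer1g was at -0.29 (SE 0.128, adjusted p = 0.166) with OI and PM, and at -0.47 (adjusted p = 0.00506) without WT OI+PM replicate 1.

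**Figure D2:**
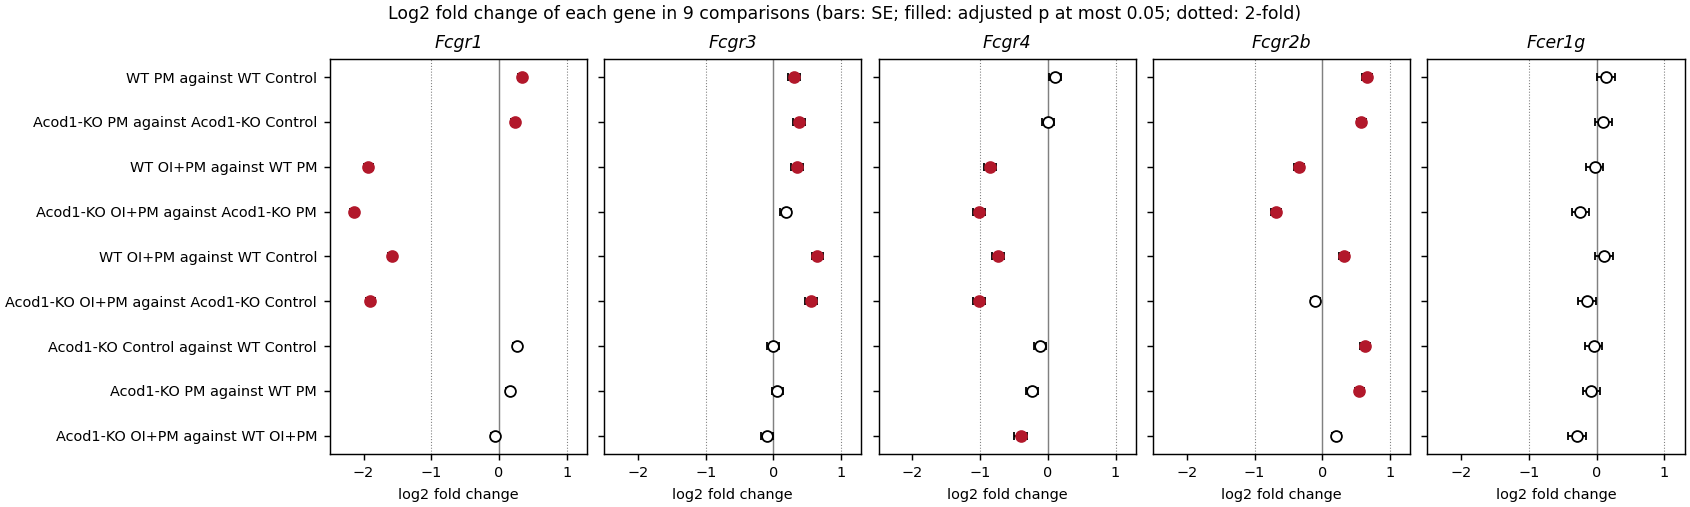
Log2 fold change of each gene in 9 comparisons of groups, with bars for the SE of the edgeR fit; filled points passed at an adjusted p of 0.05, and dotted lines mark a 2-fold change. Fcgr1 reached -1.93 and -2.14 with OI relative to PM, while Fcgr3 stayed between -0.10 and 0.65 in all 9 comparisons and Fcer1g has no filled point.

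Counted over the members, PM raised 3 of the 5 genes in WT BMDMs (Fcgr1, Fcgr3 and Fcgr2b), where 12.6% of all genes tested were called higher, and the same 3 in Acod1-/- BMDMs, where 12% were. None of these reached 2-fold. In Acod1-/- cells 1 gene, Fcgr2b, was left when either Control library or PM replicate 1 was omitted. OI relative to PM lowered Fcgr1, Fcgr4 and Fcgr2b in both genotypes, where 22.6% of genes were called lower in WT and 20.6% in Acod1-/- cells, and raised Fcgr3 in WT, where 21.3% were called higher. A fall of at least 2-fold was seen for Fcgr1 in WT (8.49% of all genes) and for Fcgr1 and Fcgr4 in Acod1-/- cells (7.98%). The PM libraries enter both kinds of comparison, so the changes with PM and with OI are not independent of each other. Relative to Control, OI and PM gave 2 higher and 2 lower members in WT (33.6% and 31.9% of all genes), and 1 higher and 2 lower in Acod1-/- cells (22.7% and 26.7%). The falls of Fcgr1 and Fcgr4 with OI and the rise of Fcgr2b with PM passed in both genotypes under all 12 alternatives tried for each.

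Whether a treatment acted differently on the receptor genes in the 2 genotypes was tested by interaction terms. None passed for any member, and 0 of 11228 genes did so for either treatment (0% called; edgeR). At an unadjusted p under 0.05 there were 273 genes for PM and 717 for OI, and DESeq2 called 3 and 34 genes. Without WT OI+PM replicate 1, 525 genes passed for OI, and no member was among them. Among the members the smallest adjusted p was that of Fcgr2b for OI, which was lowered more in Acod1-/- cells by a log2 difference of -0.34 (SE 0.0994, unadjusted p = 0.00683, adjusted p = 0.617, edgeR's quasi-likelihood test). For Fcgr1 this difference was -0.22 (SE 0.0841, adjusted p = 0.759, edgeR). For PM the differences lay between -0.11 for Fcgr4 and 0.08 for Fcgr3.

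To set the receptors beside each other, normalized CPM were divided by exonic length in kb. On that scale Fcer1g, with group means of 516 to 645, and Fcgr3, with 402 to 637, were far above Fcgr4 (39.2 to 93.4), Fcgr1 (10.4 to 45.9) and Fcgr2b (4.97 to 11.5). Fcgr2b depends on the length used, since its annotation holds long models. With the median length of its coding transcripts, chosen after seeing the data, its group means were 18.9 to 43.9 and overlapped those of Fcgr1. Of the summed level per kb of the 4 receptor genes, Fcgr3 made up 75.9 to 79.3% in the 8 libraries of Control and PM cells and 89.7 to 91.4% in the 4 libraries with OI and PM. Fcgr1 went from 6.01 to 7.53% in the former to 1.45 to 1.63% in the latter, and Fcgr4 from 11.9 to 16.3% to 5.84 to 7.74%. Fcgr3 was thus the most abundant receptor transcript in every library, and its share was higher with OI and PM in all 4 libraries.

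The log2 ratio of the summed activating receptors to Fcgr2b, per kb, was 6.67 and 6.78 in WT Control, 6.22 and 6.45 in WT PM, and 6.69 and 6.95 in WT OI+PM libraries. In Acod1-/- cells it was 6.07 and 6.09 in Control, 5.84 and 5.79 with PM, and 6.52 and 6.45 with OI and PM. In both genotypes the PM libraries were the lowest, and within each treatment every Acod1-/- library was below both WT libraries. Means were 6.72 ± 0.0742, 6.33 ± 0.167 and 6.82 ± 0.183 for WT, and 6.08 ± 0.0202, 5.82 ± 0.0291 and 6.48 ± 0.0491 for Acod1-/- cells (SD, n = 2 each, in the order Control, PM, OI and PM). This ratio was not tested, and an exact permutation test of 2 against 2 libraries could not go below p = 0.333. The length correction was not applied to it, and Fcgr3 makes up most of its numerator. With the median length of coding transcripts the means were 5.10, 4.72 and 5.25 in WT and 4.46, 4.21 and 4.92 in Acod1-/- cells, in the same order as before.

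**Figure D3:**
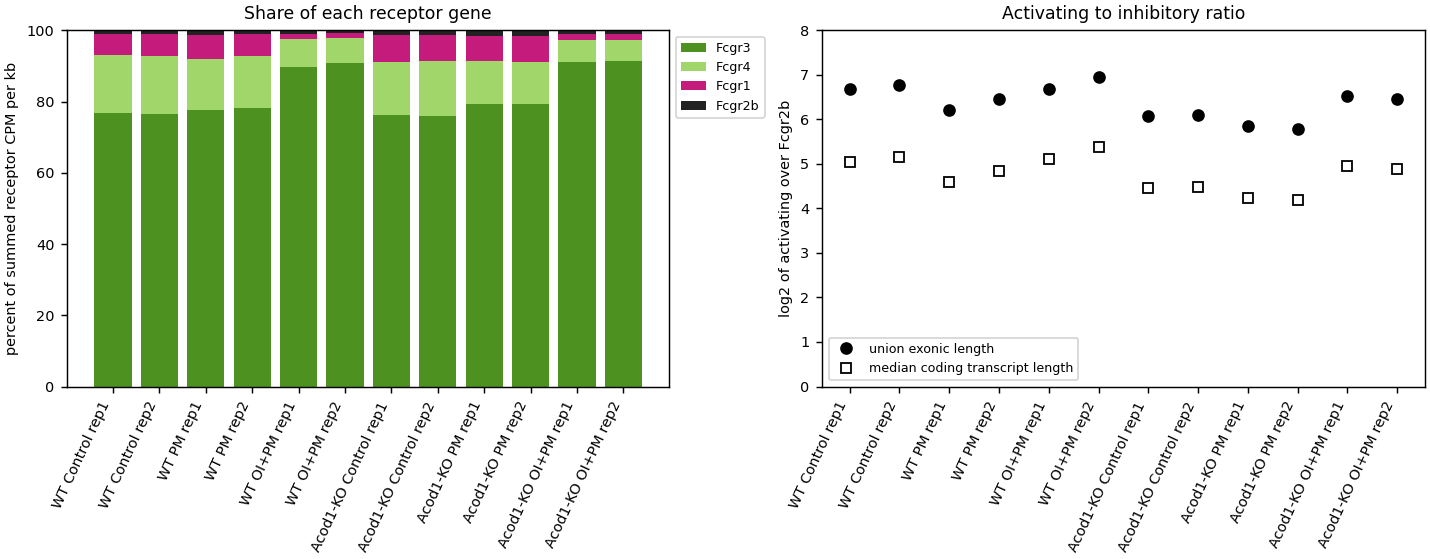
Left, share of each receptor gene in the summed normalized CPM per kb of the 4 receptor genes, as stacked bars for each library; right, log2 ratio of activating receptors to Fcgr2b per library, with 2 ways of taking gene length. Fcgr3 takes 89.7 to 91.4% with OI and PM against 75.9 to 79.3% elsewhere, and the choice of length shifts the ratio by a similar amount in all libraries.

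The machinery that acts beside these receptors was followed through lists of genes, to be read against the shares of all genes called: 12.6% higher and 12.2% lower with PM in WT, 21.3% and 22.6% with OI in WT, and 13.9% and 20.6% with OI in Acod1-/- cells. Of 8 tested kinases of the Src, Syk and Tec families, which act at the ITAM or downstream of it, 3 rose and 2 fell with PM in WT BMDMs, with a median log2 fold change of 0.06 against 0.01 for all genes. OI relative to PM lowered 6 and raised none in each genotype, with medians of -0.29 in WT and -0.36 in Acod1-/- cells against 0.02 and 0.00. Among the largest of these falls were those of Fgr (-2.0 in WT and -2.21 in Acod1-/- cells) and Src (-1.09 and -1.15), both Src family kinases, which had risen with PM in WT by 1.84 and 0.91. Syk, the kinase that docks on the phosphorylated ITAM, was at -0.29 (SE 0.0765, adjusted p = 0.012, edgeR) in WT and at -0.38 (SE 0.0766, adjusted p = 0.00326, edgeR) in Acod1-/- cells, and it is named here after its value was seen.

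A further list held partner receptors of the FcR gamma chain, the adaptors Tyrobp and Hcst, receptors that pair with Tyrobp such as Trem1 and Trem2, Clec7a, which carries a motif of its own, and the inhibitory receptor Pirb. Of its 13 tested genes, 7 rose and 1 fell with PM in WT (median 0.38 against 0.01 for all genes). The largest rises were those of the C-type lectins Clec4e (4.51, Mincle), Clec4n (4.17, Dectin-2) and Clec4d (1.67, MCL), which signal through the FcR gamma chain as the Fc receptors do. With OI relative to PM in WT, 6 rose and 4 fell (median 0.32 against 0.02). Clec4e (-2.87) and Pira2 (-1.66), a paired immunoglobulin-like receptor, fell, while Clec7a (1.37), which encodes Dectin-1, rose. In Acod1-/- cells 4 rose and 4 fell (median 0.05 against 0.00), with Clec4e at -2.85, Clec7a at 1.36 and Clec4n at 1.33.

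Of 13 other Fc receptor genes only 4 were tested, since the other 9, among them Fcer1a and Pigr, did not pass the filter on low counts. With PM in WT 2 rose and 2 fell. Fcrls (-1.69) and Fcgrt, the neonatal Fc receptor (-0.39), fell, and Fcrl1 was among those that rose (0.50). In each genotype OI lowered 2 and raised 1. It lowered Fcrls (-2.09 in WT and -2.06 in Acod1-/- cells) and Trim21, a cytosolic IgG receptor (-0.72 and -0.61), and raised Fcrl1 (1.16 and 1.01). Levels of Fcrls were low, at 3.53 normalized CPM in WT PM and 0.827 in WT OI+PM. In Acod1-/- cells they were 3.82 and 0.912. The median over these 4 genes was -0.42 in WT and -0.47 in Acod1-/- cells with OI (0.02 and 0.00 for all genes), and -0.04 in WT with PM (0.01 for all genes).

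Genes of inhibitory signalling, which oppose the ITAM pathway, numbered 19 tested, with Lilrb4a unmatched. With PM in WT 6 rose and 4 fell (median 0.02 against 0.01 for all genes). The largest changes were in Siglece (0.92), a sialic acid receptor, Pilra (0.87), an ITIM receptor, and Cblb (-0.63), a ubiquitin ligase. With OI relative to PM 3 rose and 10 fell in WT (median -0.32 against 0.02), and 2 rose and 9 fell in Acod1-/- cells (median -0.18 against 0.00). The largest falls were in the ITIM receptor genes Cd300lf (-3.54 in WT and -3.39 in Acod1-/- cells), Pilra (-3.02 and -2.95) and Siglece (-2.39 and -3.52). Levels of Cd300lf and Siglece were low, at 5.76 and 2.44 normalized CPM in WT PM and 0.495 and 0.467 with OI, and exons of Pilra overlap those of Zcwpw1. Inpp5d, the gene of SHIP1 and the main partner of FcγRIIB, did not pass, with -0.14 (SE 0.0997, adjusted p = 0.279, edgeR) in WT and -0.12 (SE 0.0996, adjusted p = 0.4, edgeR) in Acod1-/- cells with OI, and is named after its value was seen.

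Among 19 tested transcription factors of a broad list linked to Fc receptor genes, 8 rose and 2 fell with PM in WT (median 0.04 against 0.01 for all genes). Irf7 rose by 2.36 and Cebpb by 1.33. With OI relative to PM, 5 rose and 6 fell in WT (median -0.11 against 0.02) and 2 rose and 7 fell in Acod1-/- cells (median -0.07 against 0.00). Among the largest falls were those of Irf7 (-2.87 in WT and -3.19 in Acod1-/- cells) and Stat2 (-1.70 and -1.64). Exons of Irf7 and Cebpb overlap those of another gene, so their counts are uncertain. Spi1, which encodes PU.1 and is named after its value was seen, rose with PM in WT by 0.44 (SE 0.0932, adjusted p = 0.00826, edgeR) and gave -0.11 (SE 0.093, adjusted p = 0.353, edgeR) with OI in WT, while OI lowered it in Acod1-/- cells (-0.32, SE 0.0931, adjusted p = 0.0221, edgeR).

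Downstream of the receptors, all 5 tested subunits of the phagocyte NADPH oxidase rose with PM in WT (median 0.79 against 0.01 for all genes), led by Cybb (1.15, the catalytic gp91phox), Ncf4 (1.02) and Cyba (0.79, p22phox). OI relative to PM lowered Cybb (-1.01 in WT and -0.81 in Acod1-/- cells) and Ncf1 (-0.47 and -0.32). Exons of Ncf1 overlap those of Gtf2ird2. Of 43 adaptors and effectors of phagocytosis, 8 rose and 8 fell with PM in WT (median -0.05 against 0.01). OI was followed by 4 that rose and 19 that fell in WT (median -0.16 against 0.02), and 3 rose and 15 fell in Acod1-/- cells (median -0.14 against 0.00). Pla2g4a, the phospholipase that frees arachidonic acid, rose by 1.48 and 1.46, and Blnk, an adaptor of Syk, fell (-1.01 and -0.93).

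**Figure D4:**
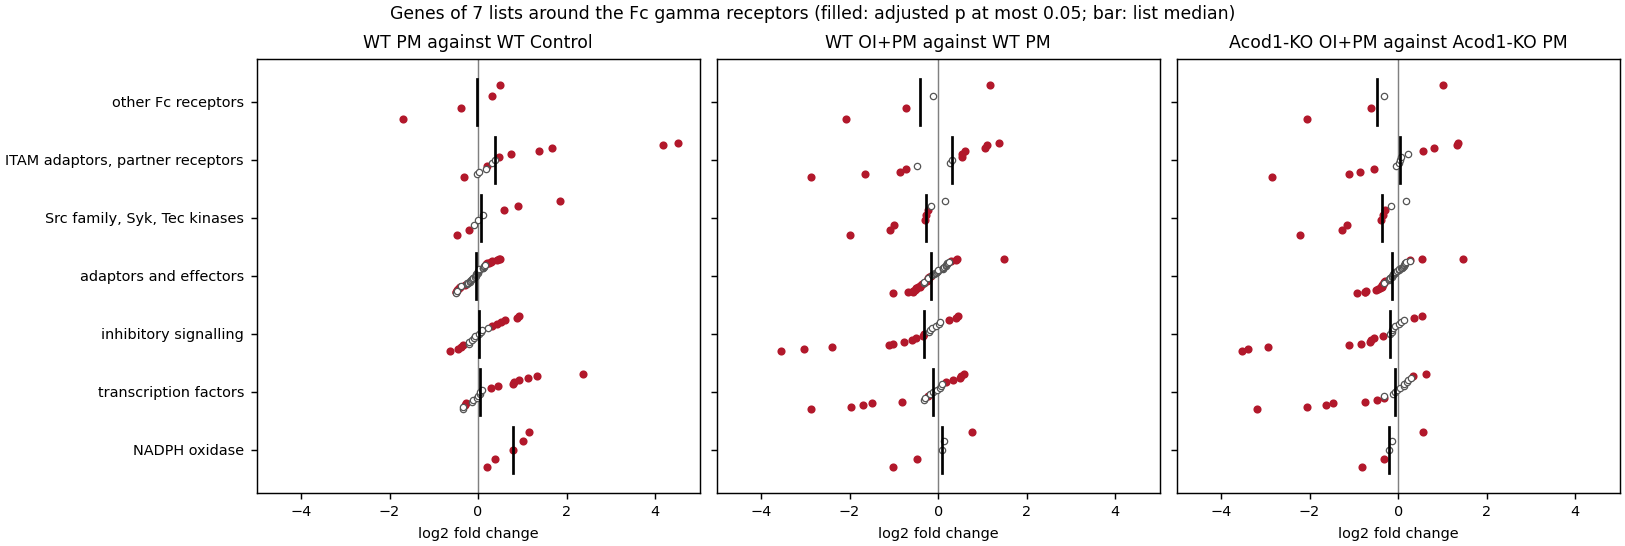
Log2 fold change of the tested genes of 7 lists around the Fc gamma receptors in 3 comparisons; each point is a gene, filled points passed at an adjusted p of 0.05, and the black bar is the median of the list. The kinase list has a median of 0.06 with PM in WT and of -0.29 and -0.36 with OI, and the NADPH oxidase list one of 0.79 with PM in WT.

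Between the genotypes with PM, 7 of the 111 tested genes of these lists (6.31%) were called, where 2.4% of all genes were. They were Trem1, an ITAM-coupled receptor of myeloid cells (-1.31), Cd300lf (-1.07), Siglece (0.91), Cd22 (-0.61), Pak1 (0.51), Irf1 (0.43) and Pla2g4a (-0.38), and none of the kinases, NADPH oxidase subunits or other Fc receptors passed. Levels of Trem1, Cd300lf and Siglece were low. Their mean normalized CPM was 1.24, 2.75 and 4.58 in Acod1-/- PM and 3.07, 5.76 and 2.44 in WT PM libraries. Exons of Cd22 and Irf1 overlap those of another gene.

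For the 3 members whose group means spanned at least 1 log2 unit, the genes nearest in pattern over the 12 libraries were taken as those with the smallest root mean square difference of log2 normalized CPM, each gene centred on its own mean, among 9571 genes with an average of at least 5 CPM. Nearest to Fcgr1 were Syce2 (0.163), Pou2f2 (0.184) and Sdc3 (0.184), where the median over all genes was 0.931. Syce2 encodes a protein of the synaptonemal complex, Pou2f2 the transcription factor Oct-2 and Sdc3 the proteoglycan syndecan 3. With OI relative to PM in WT these had log2 fold changes of -1.87, -1.93 and -2.08. Nearest to Fcgr4 were Gmnn (0.101), an inhibitor of replication licensing, Selplg (0.112), the ligand of P-selectin, and Arhgef3 (0.114), where the median was 0.508. Nearest to Fcgr2b were Tank (0.176), Vasp (0.18) and Naaa (0.183), where the median was 0.433 and Fcgr2b itself varied by 0.37 about its own mean. Of these, Tank, Vasp and Naaa had genotype differences with PM of 0.15, 0.33 and 0.23, against 0.55 for Fcgr2b. Exons of Pou2f2, Sdc3 and Arhgef3 overlap those of other genes.

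Genes beside the receptor genes were read in the same fits. Within 100 kb of Fcgr1 4 genes were tested (Bola1, Hist2h2be, Hist2h3c2 and Gm20632), and none passed with PM in WT, with OI in either genotype or between the genotypes with PM. Sdhc, the succinate dehydrogenase subunit gene that lies between Fcgr3 and Fcer1g on chromosome 1, passed none of these either, with log2 fold changes of 0.13, 0.17, 0.08 and -0.02. Pcp4l1, 33304 bases from Fcer1g, fell with PM in WT (-0.85) and with OI in WT (-1.22) and Acod1-/- cells (-1.10). Smaller changes passed for B4galt3 and Ppox, also beside Fcer1g, with OI in WT (0.35 and 0.33). Beside Fcgr2b, Atf6 fell with PM in WT (-0.43), and Dusp12 rose with OI in Acod1-/- cells (0.43).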

How the data were processed

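RNA of 12 libraries was sequenced by the authors as single-end reads of 50 bases, mapped to GRCm38 with STAR (2.5.3a) and counted on genes with featureCounts, with FastQC (0.11.5) and Picard (2.9.0) for quality, per the submitters' notes and the study's methods. What was deposited is the raw count of each gene, not normalized. The annotation release and the handling of strand and of reads with several hits are not given in the sources used here, so genes with overlapping or shared exons are named as uncertain. Groups came from the labels. Positions and exonic lengths came from GENCODE M21 and promoter windows from RefSeq on GRCm38.p6. All 5 members matched.

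Genes above 1.5 CPM in at least 2 of the 12 libraries were tested (11228). Counts were fitted by edgeR 4.0.16 (TMM, quasi-likelihood, R 4.3.3) with a mean for each group over all 12 libraries, and comparisons were contrasts of these means. Passed means an adjusted p (Benjamini-Hochberg over all genes tested) of at most 0.05, and SEs are those implied by the test. The edgeR and DESeq2 tests were run on simulated counts for PM in WT only. Alternatives were RLE scaling, a filter of 10 counts in total or none, a replicate block, an offset for gene length (lowess, span 0.3) without and with the block, only the compared groups, DESeq2 1.42.0 and leaving out each library. The length offset also removes any real change related to length. Log2 levels used a prior count of 2. In addition to the members, up to 3 genes a list with the largest change among those that passed were named in each of 4 comparisons (PM in WT, OI in each genotype, genotype with PM), with the 3 genes nearest in pattern to a member and tested genes within 100 kb. The members and lists were chosen with earlier results of these data known. Some genes that this rule named are not reported here.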

Additional observations from a re-analysis of the deposited data

How the results depend on the processing

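Of 705 alternative values over 55 pairs of member and comparison, 653 kept their direction and side of the threshold, or passed in neither fit, of which 34 changed sign. 24 lost their call, 22 gained a call and 6 reversed, all of them Fcer1g under the length offset: -0.16 with PM in WT, -0.16 with PM in Acod1-/- cells and -0.40 with OI and PM against Control in WT, the same 3 values with the replicate block added. The number of members called was 3 with PM in Acod1-/- cells and 1 to 3 with a library left out. With OI in WT it was 4, then 5 with the length offset and with the offset and block (Fcer1g gained), 2 (Fcgr1 and Fcgr4) with only the compared groups fitted, and 3 without WT PM replicate 1. With OI and PM against Control it was 4 in WT and 3 in Acod1-/- cells, and 5 and 4 with the length offset. With OI in Acod1-/- cells it was 3, and 5 without a filter, with the length offset, with the offset and block, and with only the compared groups. Between the genotypes with vehicle it was 1, then 2 with the length offset, with the offset and block and by DESeq2, and 3 with only the compared groups. With OI and PM it was 1, then 2 without a filter, 0 with the length offset, with the offset and block and with only the compared groups, and 0 to 3 with a library left out. The cause was not tested. Without division by length the log2 activating to inhibitory ratio was 4.96, 4.58 and 5.06 in WT and 4.33, 4.08 and 4.73 in Acod1-/- cells (Control, PM, OI and PM). With the median coding transcript length it was 5.10, 4.72, 5.25, 4.46, 4.21 and 4.92, and without Fcgr1 it was 6.63 in WT Control, 5.97 in Acod1-/- Control and 5.71 in Acod1-/- PM. Over all genes, the background moved most between the genotypes. With vehicle, PM, and OI and PM, 205, 269 and 782 genes were called, against 429, 694 and 2339 without a filter, 373, 590 and 1724 with the length offset, 372, 599 and 1897 with the offset and block, and 2316, 174 and 2 with only the compared groups. DESeq2 called 434 and 1321 genes with PM and with OI and PM. The compared groups alone gave 5658 genes for PM in Acod1-/- cells, 1939 for OI in WT and 8351 for OI and PM against Control in Acod1-/- cells, against 2684, 4926 and 5547. With a library left out there were 1187 to 3447 genes for PM in WT (2782 with all), 1391 to 1707 for PM in Acod1-/- cells, and 52 to 63, 74 to 153 and 95 to 5452 between the genotypes. The interactions called 0 and 0 genes for PM and OI, against 5 and 58 without a filter, 0 and 21 with the length offset, 0 and 15 with the offset and block, and 525 for OI without WT OI+PM replicate 1 (1 without WT PM replicate 1, and 0 without any other single library).

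Same-numbered libraries correlated in their deviations from the group means by 0.73 between WT PM and WT OI+PM, 0.23 between WT Control and WT PM, -0.09 between Acod1-/- PM and Acod1-/- OI+PM and -0.41 between WT PM and Acod1-/- PM, so the labels' numbers were not taken as pairs. With the replicate block the number of members called was 3 with PM in WT, 3 with PM in Acod1-/- cells, 4 with OI in WT and 3 with OI in Acod1-/- cells, as without it. With the numbers of the Acod1-/- PM libraries exchanged in the block, chosen after seeing the data, 1 member and 394 genes were called between the genotypes with PM, against 1 and 269 without a block and 255 with the labels' numbers.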
